A study of Homo sapiens with 6 samples.

Results

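Lysosomes are acidic compartments in which proteins, glycans and lipids that reach them by endocytosis or autophagy are broken down. The 44 genes described here encode 9 lysosomal proteases, 10 glycan-degrading enzymes, 5 enzymes and carriers of lipids, 5 membrane proteins and 15 subunits or accessory proteins of the proton pump, the vacuolar H+-ATPase. They were taken from a list of gene symbols that was chosen with earlier results of these data known. Each symbol matched 1 row of a table of 60605 genes. Of the 44 genes, 42 had a mean of at least 1 FPKM (counts scaled by gene length and library total) over all libraries and were tested. CTSH at 0.890 FPKM and IDS at 0.118 FPKM lay below that limit, and ATP6V1H at 3.03 FPKM was the lowest member above it.

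The libraries came from Huh-7 cells, a line established from a human hepatoma, and describe that 1 line only. All cells had first been loaded with oleic acid (100 µM for 24 h) and were then starved, in the control group as well as in the treated one. The 3 control libraries received the vehicle DMSO (0 µM pectolinarigenin) and the 3 treated libraries received 100 µM of pectolinarigenin, a plant flavone, for 24 h. Nothing in the labels says whether the libraries of a group were grown as separate cultures, so the p-values reflect library-to-library spread that could be technical only.

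Library totals lay between 15140022 and 20311261 counts. The 10 hepatocyte markers examined were detected in every library. Their summed level was 12680 to 12900 FPKM in control and 9137 to 9943 FPKM in treated libraries. Most of that sum was ALB (mean 5475 FPKM in control, 3530 FPKM in treated libraries) and AFP (4815 and 3919 FPKM). All of the 10 but APOA1 passed as lower, with log2 fold changes from -0.90 (AHSG) to -0.14 (TTR). The part of this shift in the members' values was not tested. Markers that define other cell types were mostly low. The macrophage markers PTPRC, CD163 and MARCO had at most 3 counts in any library. CSF1R had 7 to 11 counts in control and 13 to 17 counts in treated libraries and was not tested. CD14 had 71 to 106 counts in control and 50 to 69 counts in treated libraries and fell by 0.63 on the log2 scale (adjusted p = 0.00558, edgeR). The summed fibroblast markers were at 0.52 to 0.56 FPKM in control and 0.19 to 0.32 FPKM in treated libraries. The summed endothelial markers were at 2.38 to 2.67 FPKM in control and 1.22 to 1.47 FPKM in treated libraries. This endothelial sum was nearly all PECAM1, which fell by 1.05 on the log2 scale (adjusted p = 1.12e-06, edgeR). Of the 6 macrophage and leukocyte markers, 1 to 3 were at 0 in each library and their sum was 42.6 to 42.9 FPKM in control and 54.8 to 78.8 FPKM in treated libraries, nearly all of it lysozyme (LYZ). LYZ rose by 0.67 on the log2 scale (adjusted p = 7.38e-05, edgeR). Because these are bulk samples, fewer cells of a kind and less RNA per cell cannot be told apart. Treated library 3 stood apart from the other treated libraries on the second principal component (-15.5 against 6.12 and 11.4).

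Newly made hydrolases carry a mannose 6-phosphate tag that directs them to lysosomes, where the proton pump keeps the acidic pH at which they work. The pump has a cytosolic V1 part that splits ATP and a V0 part in the membrane that moves protons. Many genes of all these groups are known to carry a promoter element, called CLEAR, that is bound by the transcription factors TFEB, TFE3 and MITF and contains an E-box (CACGTG) usually extended to TCACGTG. In hepatocytes lysosomes also take up lipid droplets, whose esters are cleaved by the acid lipase LIPA.

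The sequences below show where that extended E-box lies before the transcription starts of members that rose (NEU1, MCOLN1, LAMP1, ATP6V1G1 and ATP6V0B), of a member that has it but did not pass the test (GAA) and of one that fell and lacks it (MAN2B1). They were read from RefSeq promoter windows on GRCh38.p14, each 5′ to 3′ on the strand of its gene, with TCACGTG or its reverse complement CACGTGA in capitals. Not shown are 7 members that rose and have a window without the extended E-box, nor LIPA, which fell and also lacks it. The stretches hold no annotated exon except that of ATP6V0B, which is exonic and limited to 30 bases with both of its matches. Of GAA, 30 bases around the first of its matches are shown, and the last match of LAMP1 runs past the stretch and is not in capitals. The stretches are chr6:31862907-31863021 (minus strand) for NEU1, chr19:7522424-7522623 (plus) for MCOLN1, chr13:113297039-113297238 (plus) for LAMP1, chr9:114587569-114587745 (plus) for ATP6V1G1, chr1:43974899-43974928 (plus) for ATP6V0B, chr17:80101491-80101520 (plus) for GAA and chr19:12666743-12666799 (minus) for MAN2B1.
NEU1: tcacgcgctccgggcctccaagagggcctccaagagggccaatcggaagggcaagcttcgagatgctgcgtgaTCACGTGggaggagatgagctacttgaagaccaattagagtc
MCOLN1: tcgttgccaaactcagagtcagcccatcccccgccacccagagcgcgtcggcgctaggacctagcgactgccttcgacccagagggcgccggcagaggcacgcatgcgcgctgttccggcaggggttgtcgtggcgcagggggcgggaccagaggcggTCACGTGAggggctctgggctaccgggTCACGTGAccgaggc
LAMP1: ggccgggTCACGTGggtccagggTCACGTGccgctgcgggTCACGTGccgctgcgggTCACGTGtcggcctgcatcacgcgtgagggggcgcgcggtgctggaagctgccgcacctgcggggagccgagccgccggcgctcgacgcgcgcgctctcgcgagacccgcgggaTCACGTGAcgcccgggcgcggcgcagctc
ATP6V1G1: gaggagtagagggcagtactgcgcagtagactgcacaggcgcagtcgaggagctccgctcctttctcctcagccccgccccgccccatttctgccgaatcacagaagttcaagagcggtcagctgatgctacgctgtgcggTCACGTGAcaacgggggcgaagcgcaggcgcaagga
ATP6V0B: gggTCACGTGgtaccggcgcaTCACGTGgg
GAA: gcgggaggccgcgTCACGTGAcccaccgcg
MAN2B1: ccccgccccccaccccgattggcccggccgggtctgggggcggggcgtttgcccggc

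More of the listed lysosomal genes rose than fell, most clearly among the listed membrane proteins and proton pump genes. Of the 42 tested members 18 rose and 7 fell at an adjusted p under 0.05 (edgeR's quasi-likelihood test), against 25.3% higher and 25.3% lower among all 12829 tested genes; the members' shares were 42.9% and 16.7%. In either direction 59.5% of the members passed, against 50.6% of all tested genes. The members were more abundant, with a median control level of 16.3 FPKM against 5.91 FPKM for all tested genes. When only genes averaging at least 5 FPKM were tested, 23 of 37 members and 57.4% of all tested genes passed. The part of expression level in the members' share was not tested. Their median log2 fold change was 0.14, where that of all tested genes was 0.00071. Changes were small: only NEU1 reached 2-fold, and the median absolute log2 fold change of 0.21 lay below the 0.25 of all tested genes. The membrane proteins (4 rose, 0 fell, 5 tested, 80% and 0%) and the proton pump (9 rose, 1 fell, 15 tested, 60% and 6.67%) moved mostly upward. The glycan-degrading enzymes (1 rose, 3 fell, 9 tested, 11.1% and 33.3%) did not share a direction. Nor did the proteases (2 rose, 2 fell, 8 tested), whose shares of 25% and 25% were near those of all tested genes. The lipid class had 2 that rose and 1 that fell among 5 tested (40% and 20%). Outside the member list the upward lean was not shared by further pump genes and was weaker among further membrane genes. Of 10 tested pump isoforms and assembly factors 1 rose and 4 fell, and of 20 tested membrane proteins and transporters 9 rose and 6 fell. Class medians of the log2 fold change were 0.27 for membrane proteins, 0.20 for the proton pump, 0.18 for the lipid class, 0.13 for proteases and -0.055 for glycan-degrading enzymes; these are descriptions of chosen lists and were not tested against each other. The median of the glycan-degrading enzymes is the value of GUSB, whose named pseudogenes had counts that came to 30.2% of its own. That median was -0.024 without treated library 1 and -0.018 without TMM factors (scaling factors that centre the fold changes).

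**Figure D1:**
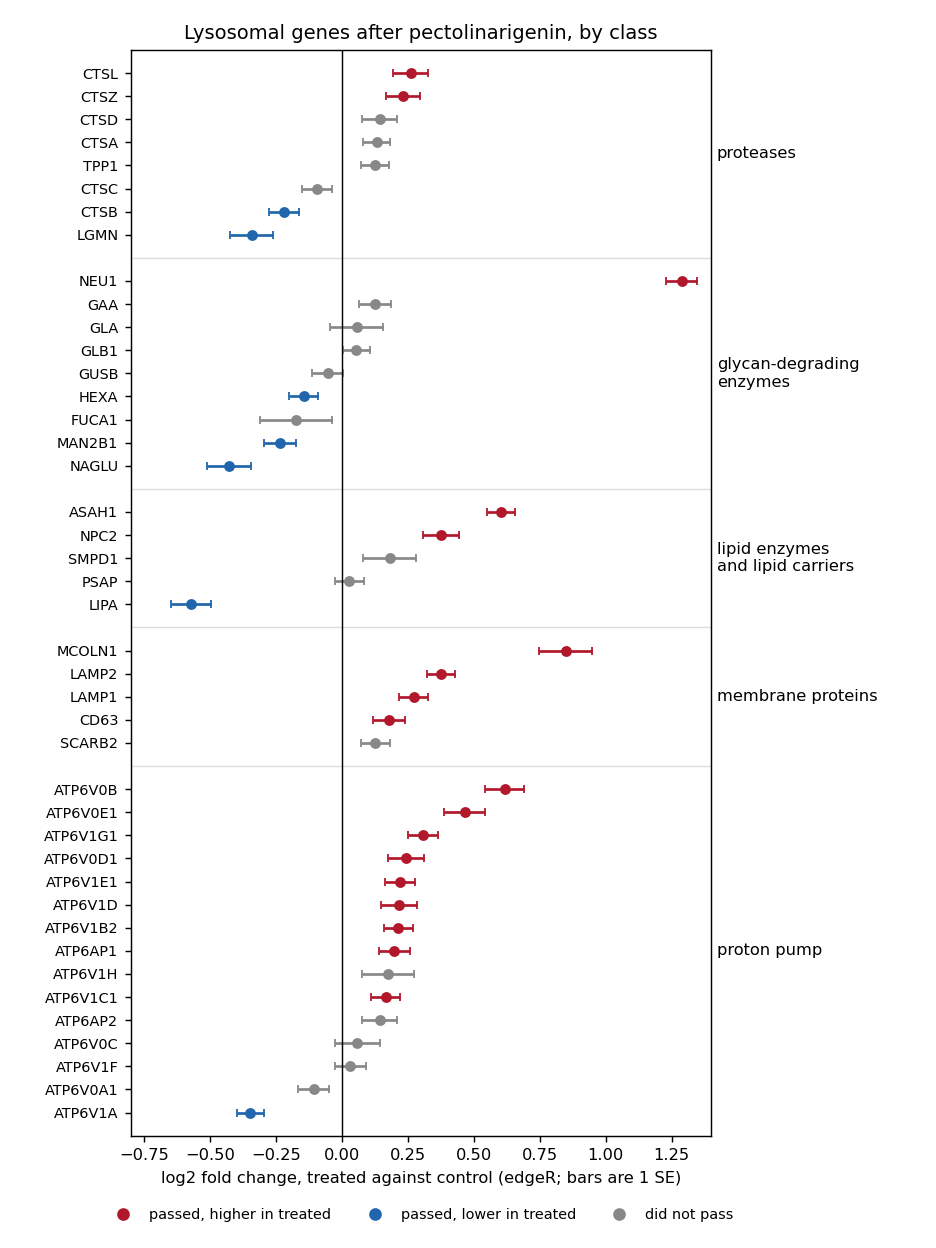
Log2 fold change of each of the 42 tested members, treated against control, by class; points are edgeR estimates, bars are 1 SE, and colour gives the test result. All 5 membrane proteins lie right of 0, the proton pump subunits range from -0.35 (ATP6V1A) to 0.62 (ATP6V0B), and NEU1 at 1.29 stands far from the other glycan-degrading enzymes.

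In FPKM the treated libraries lay wholly above the control libraries for 27 tested members and wholly below for 7, which is 81.0% of the 42 against 58.9% of all tested genes. The members' higher expression level applies here too, and shares among genes of similar level were not computed. Among all 12829 tested genes, 4296 lay wholly above and 3261 wholly below, so the upward lean in FPKM was not confined to the members. All 25 members that passed were among the 34 members without overlap. The other 9 (CTSA, CTSD, TPP1, GLB1, GAA, SCARB2, ATP6V0C, ATP6V1F and ATP6AP2) had higher FPKM in every treated library but did not pass. FPKM are scaled by library totals, whereas the test also uses TMM factors, and leaving these out moved the median log2 fold change of all tested genes to 0.038. Without them 24 members rose and 6 fell.

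Among the glycan-degrading enzymes the sialidase NEU1, which removes terminal sialic acids, changed most. NEU1 (ENSG00000204386, chromosome 6, 31857659 to 31862906, GRCh38) had 17.1, 16.9 and 18.3 FPKM in the control libraries and 42.5, 43.6 and 44.9 FPKM in the treated ones. All treated libraries were far above all control libraries, and the test gave a 2.44-fold rise (log2 fold change 1.29, SE 0.057, adjusted p = 3.65e-10, edgeR). Sialidase acts in a complex with β-galactosidase (GLB1) and the protective protein cathepsin A (CTSA), and neither partner passed. GLB1, the most abundant enzyme of this class per length in control libraries, had 36.3, 36.2 and 36.8 FPKM in control and 38.3, 39.7 and 38.5 FPKM in treated libraries and stood at 0.053 on the log2 scale (SE 0.052, adjusted p = 0.410). CTSA stood at 0.13 (SE 0.053, adjusted p = 0.0510) and passed without treated library 1 or 3 (0.0468 and 0.0393).

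The enzymes of glycan breakdown that fell did so by less. NAGLU, which cleaves N-acetylglucosamine from heparan sulfate, had 15.2, 17.6 and 19.4 FPKM in control and 12.9, 14.3 and 12.6 FPKM in treated libraries (log2 fold change -0.43, SE 0.084, adjusted p = 0.000608). The α-mannosidase MAN2B1 had 18.8, 20.8 and 20.7 FPKM in control and 17.9, 18.2 and 16.4 FPKM in treated libraries (log2 fold change -0.24, SE 0.060, adjusted p = 0.00452). In both genes the groups were close but did not overlap, and the control libraries of NAGLU differed among themselves by nearly as much as the group means did. HEXA, a hexosaminidase subunit, had 7.46, 7.21 and 7.31 FPKM in control and 7.12, 6.89 and 6.41 FPKM in treated libraries. The groups lay close together without overlap, and it changed by -0.15 (SE 0.056, adjusted p = 0.0414) but passed in only 4 of 15 alternatives (adjusted p from 0.0174 to 0.194), and lost its call without any single control library and without treated library 2 or 3 (0.0807 to 0.113). Of the rest, the acid α-glucosidase GAA, which digests glycogen, was at 0.12, the α-galactosidase GLA at 0.056, the β-glucuronidase GUSB at -0.055 and the fucosidase FUCA1 at -0.17, and none passed. These small values moved when single libraries were left out: GLA was at -0.085 without treated library 3 and at 0.13 without treated library 1, FUCA1 at -0.044 without treated library 3 and at -0.32 without treated library 2, and GUSB at -0.024 without treated library 1. GAA was at 0.073 without control library 1. GAA passed without treated library 3 (adjusted p = 0.0320), which makes the number that rose in this class 2. GUSB has 12 named pseudogenes in the annotation whose counts came to 30.2% of its own, so its value is uncertain. Of the exon bases of MAN2B1 and NAGLU, 21.2% and 12.6% are shared with other genes on the same strand. The gene that shares them with NAGLU had 0 counts in every library. Of those that share them with MAN2B1, AC010422.3 had 104 to 258 counts and AC010422.5 had 0. The effect of this sharing on the counts of NAGLU and MAN2B1 was not tested. The sulfatase IDS had 115 counts over all 6 libraries and was not tested; 17.4% of its exon bases are shared in the same way.

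The lipid class held the largest fall and one of the larger rises of the set. ASAH1, the acid ceramidase, which splits ceramide into sphingosine and a fatty acid, had 10.2, 10.2 and 9.87 FPKM in control and 15.4, 15.9 and 15.8 FPKM in treated libraries, a 1.52-fold rise (log2 fold change 0.60, SE 0.053, adjusted p = 4.31e-07). LIPA (ENSG00000107798, chromosome 10, 89213569 to 89414557), the acid lipase that cleaves cholesteryl esters and triglycerides, had 9.84, 8.98 and 9.80 FPKM in control and 6.24, 7.28 and 6.26 FPKM in treated libraries. It fell by 0.57 on the log2 scale (SE 0.076, adjusted p = 2.23e-05). In both genes the groups were clearly separate, in opposite directions. NPC2, which binds the cholesterol that LIPA releases and passes it to the membrane protein NPC1, had 22.1, 24.0 and 23.1 FPKM in control and 28.2, 31.4 and 32.4 FPKM in treated libraries (log2 fold change 0.38, SE 0.067, adjusted p = 0.00028). NPC1 itself, which is not a member, fell by 0.31 on the log2 scale (SE 0.054, adjusted p = 0.000217), from 21.7 to 22.1 FPKM in control to 17.2 to 18.8 FPKM in treated libraries. PSAP, the precursor of the saposins that present sphingolipids to hydrolases, had the highest level per length of all members, with 348.6 to 362.0 FPKM in control and 360.0 to 382.9 FPKM in treated libraries, or 26.7% to 28.9% of the members' summed FPKM. Its groups overlapped and it did not pass (log2 fold change 0.027, SE 0.055; between 0.0011 without treated library 3 and 0.054 without treated library 1). The acid sphingomyelinase SMPD1 was at 0.18 (SE 0.10) and did not pass; without treated library 3 it was at 0.28 and passed (adjusted p = 0.0126). As SMPD1 is the middle gene of the 5, the class median moved with it, to 0.11 without treated library 2 and 0.28 without treated library 3.

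**Figure D2:**
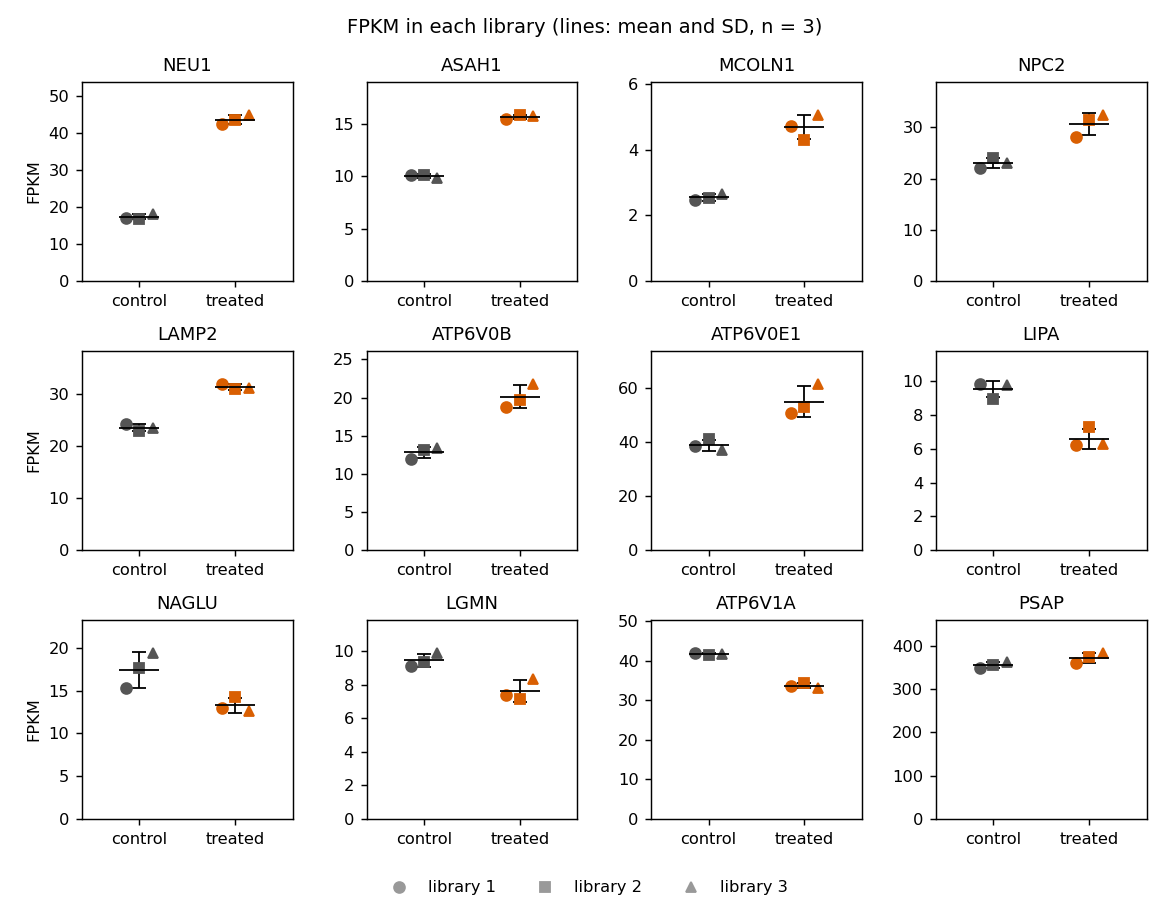
FPKM of 12 members in every library; each panel has its own linear axis from 0, symbols give the library number, and black lines are the mean and SD of 3 libraries. The groups of every gene but PSAP are separate, and the treated libraries of LIPA, NAGLU, LGMN and ATP6V1A lie below the controls.

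All 5 tested membrane proteins had positive log2 fold changes and 4 of them passed, with 0 lower by edgeR at an unadjusted p under 0.05 and 0 lower by DESeq2. MCOLN1 (ENSG00000090674, chromosome 19, 7522626 to 7534009), the channel TRPML1 through which lysosomes release calcium, had 2.47, 2.52 and 2.67 FPKM in control and 4.72, 4.31 and 5.06 FPKM in treated libraries, a 1.80-fold rise (log2 fold change 0.85, SE 0.10, adjusted p = 7.63e-06). It is the least abundant membrane protein of the set per length and the one with the largest change. LAMP2, a heavily glycosylated coat protein of the lysosomal membrane that also serves chaperone-mediated autophagy, had 24.3, 22.9 and 23.5 FPKM in control and 31.9, 30.9 and 31.2 FPKM in treated libraries (log2 fold change 0.38, SE 0.053, adjusted p = 3.83e-05). Its relative LAMP1 had 35.6, 34.0 and 33.5 FPKM in control and 42.2, 43.8 and 41.8 FPKM in treated libraries (log2 fold change 0.27, SE 0.054, adjusted p = 0.000664). Both LAMP genes rose in every treated library by several times the spread within groups. The tetraspanin CD63, the most abundant of the class, had 124.5, 125.0 and 123.7 FPKM in control and 135.4, 144.2 and 154.0 FPKM in treated libraries (log2 fold change 0.18, SE 0.060, adjusted p = 0.0215). Leaving out control library 1, 2 or 3 ended its call (adjusted p = 0.0632, 0.0738 and 0.0942), and it passed in 12 of 15 alternatives (0.00234 to 0.0942). SCARB2, which carries the enzyme glucocerebrosidase to lysosomes, was at 0.13 (SE 0.056, adjusted p = 0.0726) and passed without treated library 3 (0.0223).

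The proteases were divided, with 25% of the 8 tested higher and 25% lower, near the 25.3% of all tested genes in each direction. CTSL, a cysteine protease, had 11.9, 11.9 and 11.4 FPKM in control and 13.2, 15.8 and 14.4 FPKM in treated libraries (log2 fold change 0.26, SE 0.067, adjusted p = 0.00457). CTSZ, a carboxypeptidase, had 4.21, 4.15 and 4.51 FPKM in control and 4.87, 5.09 and 5.52 FPKM in treated libraries (log2 fold change 0.23, SE 0.064, adjusted p = 0.00709). LGMN, which cuts after asparagine and helps to mature other cathepsins, had 9.12, 9.36 and 9.90 FPKM in control and 7.38, 7.16 and 8.35 FPKM in treated libraries (log2 fold change -0.34, SE 0.080, adjusted p = 0.00225). The cysteine protease CTSB had 19.9, 20.5 and 20.1 FPKM in control and 17.4, 19.0 and 17.0 FPKM in treated libraries (log2 fold change -0.22, SE 0.056, adjusted p = 0.0042). The cysteine proteases CTSL and CTSB thus changed with opposite signs, and the groups overlapped in neither. The aspartic protease CTSD, the most abundant protease per length, was at 35.6, 40.8 and 39.3 FPKM in control and 41.8, 42.5 and 46.6 FPKM in treated libraries and did not pass (log2 fold change 0.14, SE 0.066, adjusted p = 0.0852). CTSD was at 0.086 without control library 1, at 0.087 without treated library 3 and at 0.18 without treated library 1, where it passed (adjusted p = 0.0375), and 41.7% of its exon bases are shared with another gene on the same strand. That gene, AC068580.4, had 38 to 52 counts per library, and the effect on the counts of CTSD was not tested. The tripeptidyl peptidase TPP1 at 0.13 (SE 0.054) and the dipeptidyl peptidase CTSC at -0.096 (SE 0.056) did not pass; without treated library 3 both did (adjusted p = 0.0350 for each). The aminopeptidase CTSH, at 0.81 to 0.96 FPKM, was not tested. The number of proteases that rose is not firm: it was 4 without treated library 1 (with CTSA and CTSD added) and 4 without treated library 3 (with CTSA and TPP1 added).

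Of the 15 proton pump genes 9 rose, and the fall was in the subunit that splits ATP. In the membrane part V0, ATP6V0B, a proteolipid of the rotor ring (ENSG00000117410, chromosome 1, 43974487 to 43978295), had 12.0, 13.1 and 13.3 FPKM in control and 18.8, 19.7 and 21.8 FPKM in treated libraries, a 1.53-fold rise (log2 fold change 0.62, SE 0.073, adjusted p = 7.43e-06). ATP6V0E1, a small membrane subunit, had 38.5, 41.2 and 37.2 FPKM in control and 50.8, 53.0 and 61.6 FPKM in treated libraries (log2 fold change 0.46, SE 0.076, adjusted p = 0.000145). ATP6V0D1, which joins the ring to the central stalk, had 4.48, 4.97 and 4.94 FPKM in control and 6.07, 5.80 and 5.61 FPKM in treated libraries (log2 fold change 0.24, SE 0.068, adjusted p = 0.00766). These 3 genes were higher in every treated library than in any control. The main ring proteolipid ATP6V0C, at 11.9 to 12.7 FPKM in control and 12.8 to 13.8 FPKM in treated libraries, did not pass (log2 fold change 0.058, SE 0.085; 0.028 without control library 3 and 0.034 without treated library 2), and 72.1% of its exon bases are shared with other genes on the same strand. The genes that share them had at most 2 counts in any library, and the effect on the counts of ATP6V0C was not tested. ATP6V0A1, an isoform of the subunit through which protons pass, was at -0.11 (SE 0.058), or -0.058 without treated library 3, and did not pass.

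In the cytosolic part V1, the catalytic subunit ATP6V1A (ENSG00000114573, chromosome 3, 113747019 to 113812056) had 42.0, 41.6 and 41.8 FPKM in control and 33.6, 34.3 and 33.2 FPKM in treated libraries. It fell by 0.35 on the log2 scale (SE 0.051, adjusted p = 5.31e-05), and the gap between the groups was many times the spread within them. Its partner in the catalytic head, ATP6V1B2, had 12.6, 11.8 and 11.8 FPKM in control and 14.7, 14.0 and 14.4 FPKM in treated libraries and rose (log2 fold change 0.21, SE 0.056, adjusted p = 0.00529). Thus the genes for the A and B subunits, which alternate in equal number in the head of the enzyme, moved in opposite directions. The stator subunit ATP6V1G1 had 44.0, 44.1 and 45.1 FPKM in control and 53.1, 58.9 and 57.4 FPKM in treated libraries (log2 fold change 0.31, SE 0.057, adjusted p = 0.000381). The stator subunit ATP6V1E1 had 35.0, 35.6 and 36.8 FPKM in control and 41.1, 42.2 and 45.0 FPKM in treated libraries (log2 fold change 0.22, SE 0.058, adjusted p = 0.00536). Neither stator gene had overlapping groups. ATP6V1D of the central stalk rose by 0.22 (SE 0.068, adjusted p = 0.0151) and ATP6V1C1, which links stator and head, by 0.17 (SE 0.055, adjusted p = 0.0205). ATP6V1F, the other stalk subunit and the most abundant pump transcript per length at 69.6 to 74.6 FPKM in control libraries, was at 0.032 (SE 0.060), or -0.0011 without control library 1, and did not pass, and neither did the regulatory subunit ATP6V1H at 0.17 (SE 0.099), the least abundant. Of the accessory proteins ATP6AP1 rose by 0.20 (SE 0.060, adjusted p = 0.0119) and ATP6AP2, the prorenin receptor, was at 0.14 (SE 0.067, adjusted p = 0.0893). The smaller rises depended on single libraries: ATP6V1C1 lost its call without control library 2 (adjusted p = 0.127) or treated library 2 (0.0631), ATP6V1D without control library 2 (0.0895) and ATP6AP1 without control library 1 (0.0737), and ATP6AP2 passed without treated library 1 (0.00915) but was at 0.086 without treated library 3.

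**Figure D3:**
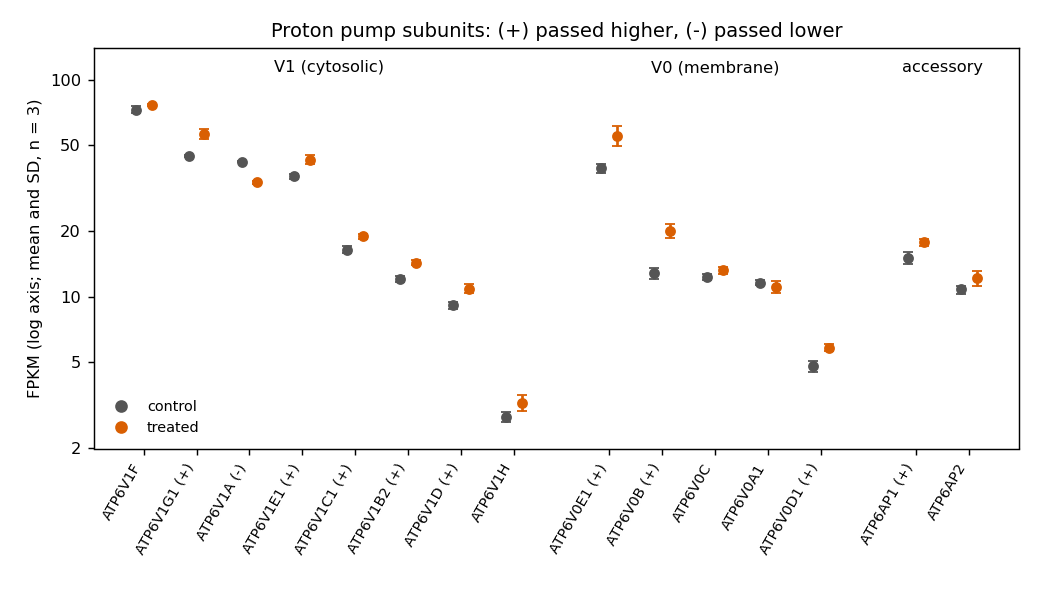
FPKM of the 15 proton pump genes on a log axis, control and treated, as mean and SD of 3 libraries; (+) and (-) mark genes that passed the test higher or lower. Levels per length spanned 2.80 FPKM (ATP6V1H) to 72.8 FPKM (ATP6V1F) in control libraries, and ATP6V1A is the subunit marked (-).

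Of 18 further pump subunit isoforms and assembly factors 10 were tested, and 1 rose and 4 fell (10.0% and 40.0%, where 25.3% of all tested genes passed in each direction). The isoforms of the proton-conducting a subunit were divided: TCIRG1, the a3 isoform, fell by 0.79 on the log2 scale (SE 0.079, adjusted p = 1.5e-06), with 11.8, 12.9 and 14.1 FPKM in control and 7.63, 8.40 and 7.10 FPKM in treated libraries. ATP6V0A2, the a2 isoform, rose by 0.60 (SE 0.071, adjusted p = 6.8e-06), with 1.94, 1.73 and 1.83 FPKM in control and 2.99, 2.76 and 2.83 FPKM in treated libraries. Per length, ATP6V0A1 and TCIRG1 stood at similar control levels, 11.6 and 12.9 FPKM on average, and in treated libraries at 11.1 and 7.71 FPKM. The assembly factor VMA21 fell by 0.36 (SE 0.066).

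Of 29 tested hydrolases and activators outside the member list 9 rose and 8 fell, shares of 31.0% and 27.6% that are near the 25.3% of all tested genes in each direction. The cysteine protease CTSO rose by 0.70 (SE 0.12), with 1.39, 1.38 and 1.15 FPKM in control and 1.88, 2.20 and 2.48 FPKM in treated libraries. The lipid-presenting activator GM2A fell by 0.32 on the log2 scale (SE 0.056), with 16.1, 16.4 and 16.8 FPKM in control and 13.5, 13.5 and 13.5 FPKM in treated libraries. In neither gene did the groups overlap. Of 20 tested membrane proteins and transporters 9 rose and 6 fell (45.0% and 30.0%, against 25.3% each). The chloride-proton exchanger CLCN7 rose by 0.79 (SE 0.071) and its partner subunit OSTM1 by 1.07 (SE 0.086), whereas the related CLCN6 fell by 0.42 on the log2 scale (SE 0.082). OSTM1 had 3.91, 4.16 and 3.89 FPKM in control and 8.50, 7.80 and 9.49 FPKM in treated libraries. Both parts of this exchanger were thus higher in every treated library.

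Genes that bring hydrolases to lysosomes showed 5 rises and 4 falls among 20 tested (25% and 20%), shares near the 25.3% of all tested genes. The enzyme that starts the mannose 6-phosphate tag is made from 2 genes, and these moved in opposite directions: GNPTAB fell by 0.63 on the log2 scale (SE 0.072) and GNPTG rose by 0.61 (SE 0.076). GNPTAB had 7.11, 7.2 and 6.50 FPKM in control and 5.0, 4.67 and 4.19 FPKM in treated libraries, and GNPTG had 3.69, 3.98 and 4.11 FPKM and 6.44, 6.16 and 5.83 FPKM. The tethering subunit VPS18 rose by 0.50 (SE 0.074), and AP3B1 of the AP-3 adaptor fell by 0.44 on the log2 scale (SE 0.054). Among 15 tested MiT/TFE factors and genes of nutrient signalling at the lysosome 6 rose and 2 fell (40.0% and 13.3%, against 25.3% each). TFE3 had 1560 to 1940 counts in control and 1952 to 2590 counts in treated libraries and rose by 0.25 (SE 0.057, adjusted p = 0.00184), whereas TFEB had 9 to 17 counts in any library, MITF at most 3, and neither was tested. RRAGC, a Rag GTPase with part of its exons shared with another gene, rose by 1.08 (SE 0.094) and FNIP2 by 0.53 (SE 0.066). TFEC fell by 2.87 on the log2 scale (SE 0.20), with 274 to 343 counts in control and 32 to 67 counts in treated libraries, and ZKSCAN3, a zinc finger protein, by 0.80 (SE 0.11).

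The extended E-box stood in a larger share of member promoters than of all promoters. Promoter windows of 250 bases before to 50 bases after an annotated start were found in the RefSeq table for 32 of the 44 members, and 9 of these (28.1%) held TCACGTG on either strand, against 7.58% of the 8979 tested genes with a window and 3.71% of all 35116 windows of that length. The core CACGTG, which every extended match contains, was in 10 members (31.2%), against 12.8% of the tested genes; the tenth is CD63, in 1 of its 8 windows. LAMP1 held 6 extended matches, MCOLN1, ATP6V0B, CTSA and GAA 2 each, and NEU1, ATP6V0D1, ATP6V1G1 and CTSD 1 each, as the sequences above show for 6 of them. Of these 9 members 6 rose and 0 fell, with a median log2 fold change of 0.27, and CTSA, CTSD and GAA did not pass. Of the 21 tested members with a window but no extended match 7 rose and 2 fell (LIPA and MAN2B1), with a median of 0.13. The 12 members without a window could not be scored. They include the other members that fell (ATP6V1A, CTSB, HEXA, LGMN and NAGLU). Also among them are ASAH1, LAMP2, ATP6V0E1, ATP6V1B2 and ATP6V1C1, which rose. Most members that fell thus do not enter this comparison. Over all tested genes with a window, 34.8% of the 681 with a match and 27.3% of the 8298 without one rose. These are shares of chosen genes and were not tested; a match describes letters in a window, and binding was not measured.

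**Figure D4:**
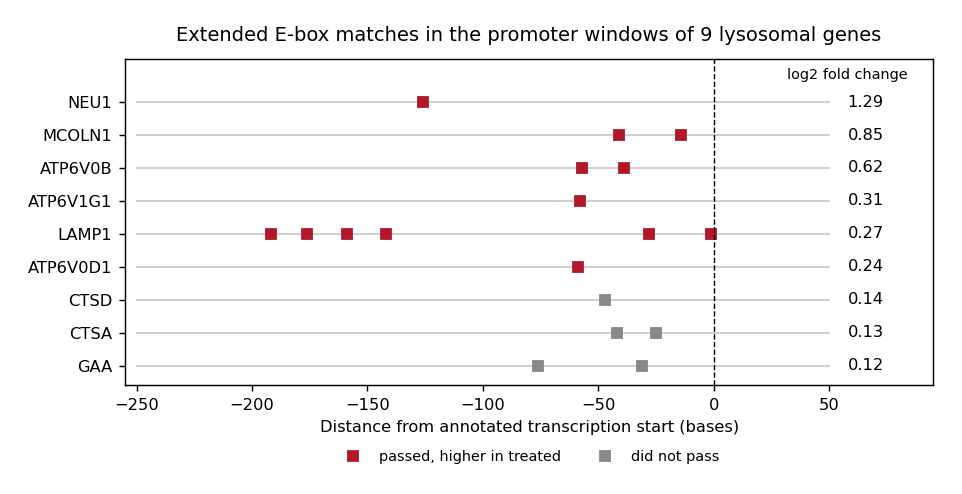
Positions of the extended E-box in the promoter windows of the 9 members that have it, in bases from the annotated start (dashed line), with each gene's log2 fold change at the right. LAMP1 has a group of 4 matches from -192 to -142 besides those at -28 and -1, and in the other 8 genes matches lie between -126 (NEU1) and -14 (MCOLN1).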

How the data were processed

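The deposited table gave, for each gene and library, the authors' raw counts and the authors' FPKM. Over 2422 well-expressed genes, counts divided by library total and FPKM gave 1 length per gene (largest coefficient of variation 0.00496), so the deposited FPKM are scaled by library total and gene length. Per the submitters' processing notes, the build was GRCh38 and the tools included HTSeq 0.6.1, HISAT2 2.0.1 and cutadapt 1.9.1. For annotation release, strand setting and multi-mapping reads the answer is: not given in the sources used here.

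Counts of all genes with a mean of at least 1 FPKM were fitted with edgeR 4.0.16 (R 4.3.3; TMM, quasi-likelihood, no covariate, 2-sided), with Benjamini-Hochberg adjustment over 12829 genes and a threshold of 0.05. SEs come from the F statistic. The pipeline was checked on simulated counts. No libraries of a group agreed within sampling noise (chi-square per degree of freedom 1.50 to 9.85). Alternatives used DESeq2 1.42.0, limma 3.58.1 on log2(FPKM + 1) or log2(FPKM + 0.1), other scalings and filters, a replicate block, and omission of each library. Positions, shared exons and pseudogenes are from GENCODE 29 on GRCh38 by Ensembl identifier, handled in Python 3.11.15; promoter windows are from RefSeq by symbol.

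The members and gene lists were chosen with earlier results of these data known. Genes given in full were, per class, the called members with the smallest p in each direction (up to 4, or 6 for the pump), members against the direction of their class and the most abundant; of each other list, up to 2 called genes in each direction. Some genes that this rule names are not reported here. Further genes were chosen after their values were seen. Library totals were 15140022 to 20311261 counts.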

Additional observations from a re-analysis of the deposited data

How the results depend on the processing

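Of the 25 members that passed, 20 passed in every alternative in which they were tested, and all 25 kept their sign in all of them. Of the 17 that did not pass, 9 passed in no alternative. The members that rose numbered 15 to 24 over the alternatives and those that fell 6 or 7. With the replicate block the numbers were 18 and 7, as in the fit without it, and the block changed no class count. Same-numbered libraries had correlations of deviations of -0.00692, 0.0246 and -0.0124. With 3 libraries per group such values cannot decide whether the numbers pair the libraries. The proteases that rose numbered 5 without TMM factors, 1 when only genes averaging 5 FPKM or more were tested (CTSZ was then not tested), 4 with filterByExpr and 4 with limma at either pseudocount, and 2 to 4 without single libraries. The glycan-degrading enzymes that rose numbered 2 without TMM factors and 1 to 2 without single libraries. The median log2 fold change of these enzymes was -0.083 to -0.018 over all alternatives. That of the lipid class was 0.22 without TMM factors and 0.22 with limma on log2(FPKM + 0.1), and 0.11 to 0.28 without single libraries. That of the membrane proteins was 0.31 without TMM factors, 0.31 with limma on log2(FPKM + 0.1) and 0.21 under the filter of 5 FPKM, where MCOLN1 was not tested. Where no construction shows it, the cause was not tested. Each arm has 3 libraries, and a fit without a library leaves 2 in its arm.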
